A study of Arabidopsis thaliana with 6 samples.

Results

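The step of normal bud development described here is that of wild-type Arabidopsis thaliana from stage A to stage B. It sets 1 library of stage B buds, with anthers at stages 7 to 9, against 1 library of stage A buds, with anthers at stages 5 to 6. These are 2 of the 6 libraries of the series, chosen by their labels alone. The series also holds wild-type stage C buds (anther stages 10 to 11) and the same 3 stages of the atcep1 mutant, whose lesion is in a papain-like cysteine protease gene. Both wild-type libraries came from soil-grown plants of the Columbia background with no transgene or treatment named, and the labels give neither the number of plants nor the number of buds behind a library. Whole buds were used, so sepals, petals and carpels are in every library, and fewer cells of a type cannot be told apart from less RNA per cell.

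Inside the young anther, meiocytes enter meiosis while a surrounding cell layer, the tapetum, differentiates to feed them. Meiosis leaves tetrads of haploid cells held in callose, the callose is dissolved, and free microspores receive an outer wall of sporopollenin whose precursors the tapetum makes. Later the microspores build a pectin-rich inner wall and the tapetum supplies lipids and proteins of the pollen coat. A cascade of transcription factors, DYT1, TDF1 (MYB35) and AMS among them, runs the tapetal programme. The step from stage A to stage B spans the change from meiosis to tetrads and microspores.

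The stage B library held 4.1 M uniquely mapped reads (M, 10 to the power 6) and the stage A library 4.04 M, and the 6 libraries ranged up to 4.41 M. Levels are RPKM, reads scaled to the length of the transcript model and to the library total, summed over the models of a locus. The difference is given as log2((stage B RPKM + 1)/(stage A RPKM + 1)), which understates the change of low genes. A locus counts as at least 2-fold higher from a value of 1 upward and as at least 2-fold lower from -1 downward, provided one of its levels reached 5 RPKM; loci over that minimum are called tested here. With 1 library a side there is no test and no replicate check. Each read ratio, corrected for the library totals, has an exact 95% interval for counting error alone, and duplicates made by PCR count as separate reads in it. CEP1, the gene named in the mutant label, had 4, 5 and 6 reads in stages A, B and C of the libraries labelled atcep1, against 0, 1 and 6 reads in those of the wild type. The libraries labelled atcep1 thus held no fewer CEP1 reads than the wild type at any stage. So few reads cannot show whether transcript was lost, so they do not check the mutant label. The lesion itself was not measured here.

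The stage labels were checked on marker genes. The meiocyte markers DMC1, SDS, ASY1, ZYP1a and TDM1 had 163, 22, 35, 31 and 4 reads in stage B, against 212, 29, 78, 43 and 18 reads in stage A, so all 5 counts were lower in stage B but none was 0. Of these, ASY1 passed 2-fold, DMC1 stayed within it, and SDS, ZYP1a and TDM1 were under the level minimum; the intervals of SDS (0.409 to 1.35) and ZYP1a (0.432 to 1.15) include a ratio of 1. Of the tapetum markers, DYT1, MYB35, AMS, MYB80, MS1, AT5G07230 and ATA7 had 3, 18, 221, 4, 12, 104 and 376 reads in stage B, against 22, 100, 476, 8, 29, 297 and 539 reads in stage A. All 7 counts were lower in stage B, with MYB80 and MS1 under the level minimum and ATA7 within 2-fold. The interval of MYB80 (0.109 to 1.84) includes 1. In the lists of tapetum regulators and tapetal secreted proteins, MYB33, MYB65 and ATA20 had ratios of 1.31, 1.09 and 1.52. Their intervals include 1. The pollen markers AHA6, TIP1;3, ADF7, STP6, VGD1 and AGL66 had 210, 11, 22, 10, 2523 and 8 reads in stage B, against 26, 3, 2, 0, 79 and 0 reads in stage A. All 6 counts were higher in stage B, but TIP1;3, STP6 and AGL66 were under the level minimum and the interval of TIP1;3 (0.954 to 20.2) includes 1. In the pollen list these markers come from, 24 of 27 loci with a read in either library had a read ratio above 1, while HAP2 had 3 reads in stage B and 9 in stage A, DUO1 2 in stage B and 3 in stage A, and AGL65 15 in stage B and 18 in stage A. The ovule marker INO had 126 reads in stage B and 23 in stage A, and the carpel marker CRC 292 in stage B and 725 in stage A. STK, also fixed as a carpel and ovule marker, had 6 reads in stage B and 2 in stage A. It was under the level minimum, and its interval (0.528 to 29.9) includes 1.

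The step was lopsided, with more loci higher than lower and with larger factors among the higher ones. Of 13157 tested loci, 649 (4.93%) were at least 2-fold higher in stage B and 231 (1.76%) at least 2-fold lower, while the median of all 13157 was -0.05 on the log2 scale. The higher loci had a median log2 ratio of 1.82 and a maximum of 6.65, and 189 of them reached a log2 ratio of 3. The lower loci had a median of -1.36 and a minimum of -3.68, and 5 of them reached -3. In the stage A library, 207 of the 649 higher loci had at most 3 reads and 93 had none. In the stage B library, 23 of the 231 lower loci had at most 3 reads and 6 had none. Under the stricter condition that the exact interval of the read ratio lies wholly past 2-fold, 369 loci were higher and 77 lower.

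**Figure D1:**
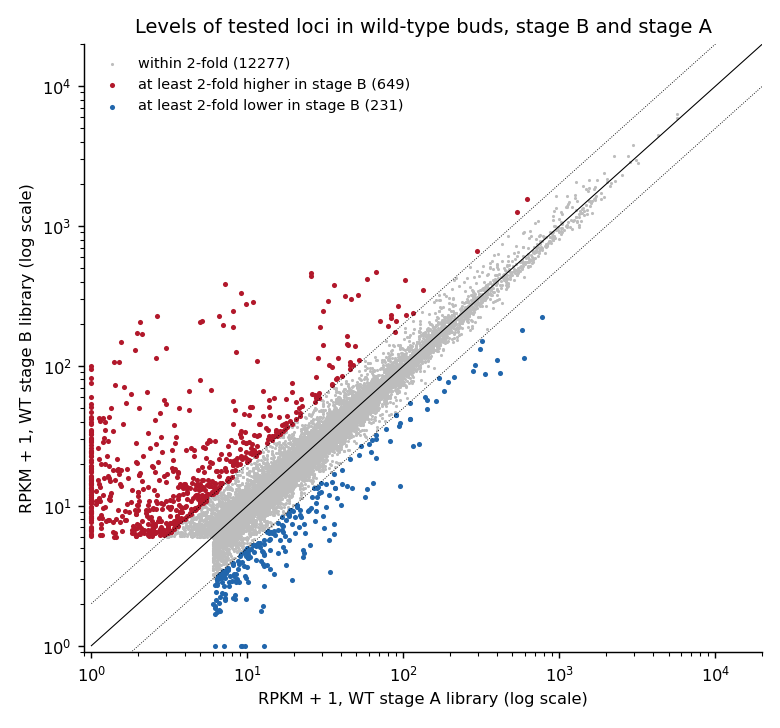
Levels of the 13157 tested loci, with RPKM + 1 in the wild-type stage B library (vertical) against the stage A library (horizontal), both on log scales; the solid line marks equal levels and the dotted lines 2-fold. The 649 higher loci reach far above the upper dotted line and pile up at the left edge, where stage A had no read, while the 231 lower loci lie closer to the lower line.

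Taken as sets picked by these ratios, the 649 higher loci took 3.1% of all reads in stage B, against 0.659% in stage A, and 6.55% in the later stage C library. The 231 lower loci took 0.336% in stage B, against 0.984% in stage A, and 0.161% in stage C. The median level of a higher locus was 14.3 RPKM in stage B, against 2.39 RPKM in stage A, and that of a lower locus 4.34 RPKM in stage B, against 13.4 RPKM in stage A. The medians in stage C were 27.0 RPKM for the higher loci and 2.58 RPKM for the lower loci.

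Genes annotated to families of pectin enzymes and their inhibitors were prominent among the loci with the largest ratios. Of the 14 largest ratios, 4 belonged to genes annotated as pectin lyase-like or pectate lyase proteins. A further 3 belonged to genes annotated to the pectin methylesterase and inhibitor family, which sets how far pectin is esterified. These classes are the words of the annotation and do not fix which reaction each protein carries out. AT3G07820, a pectin lyase-like gene on chromosome 3 at 2496440 to 2498095 (TAIR10, minus strand), had 1177 reads and 205 RPKM in stage B, against 6 reads and 1.06 RPKM in stage A, a read ratio of 193 (95% interval 88.5 to 527). AT3G01270, a pectate lyase gene, had 1672 reads and 225 RPKM in stage B, against 12 reads and 1.64 RPKM in stage A, a ratio of 137 (78.3 to 266). AT5G07430, also pectin lyase-like, had 794 reads and 146 RPKM in stage B, against 3 reads and 0.559 RPKM in stage A, a ratio of 261 (88.9 to 1267). All 3 had a few reads in stage A. AT5G48140, another pectin lyase-like gene, had 482 reads in stage B and 0 in stage A, which makes it at least 158-fold higher when the floor of the stage A library is taken as 3 reads.

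VGDH1, a pectin methylesterase gene next to its near copy VGD1 on chromosome 2, had 1460 reads and 171 RPKM in stage B, against 8 reads and 0.954 RPKM in stage A, a ratio of 180 (91.0 to 417). VGD1, known for pollen tube growth, had 2523 reads and 278 RPKM in stage B, against 79 reads and 8.83 RPKM in stage A, a ratio of 31.4 (25.1 to 39.9). The split between these 2 genes is uncertain, because only uniquely mapped reads were counted and the copies are alike. The family members AT4G02250 and AT5G50030 had 209 and 431 reads in stage B, against 1 and 3 reads in stage A. Their ratios of 206 (36.5 to 8168) and 141 (48.1 to 689) have wide intervals, since the stage A counts are so small.

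The remaining high loci encode small secreted or calcium-binding proteins and proteins of unknown function. RALFL15, a member of the RALF family of secreted signalling peptides, had 98 reads in stage B and 0 in stage A, at least 32.2-fold higher. The defensin-like gene AT5G60615 had 93 reads in stage B and 0 in stage A, at least 30.5-fold higher. BCP1, the homologue of a Brassica campestris pollen protein, had 277 reads and 106 RPKM in stage B, against 1 read and 0.387 RPKM in stage A. The agp1-like anther protein gene AT3G26110 and the EF-hand gene AT4G03290 had 153 and 187 reads in stage B, and neither was read in stage A. AT3G01240 and AT5G39880, both annotated as unknown proteins, had 455 and 414 reads in stage B, against 3 and 0 reads in stage A. AT3G01240 lies close to AT3G01270 on chromosome 3. All 14 loci stood higher again in stage C, at 186 to 670 RPKM.

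Of these 14 loci, 6 share a MEF2-type CArG box within the 250 bases before the gene start. This palindromic motif is known as the target of the MIKC* MADS-box factors of pollen. Their upstream windows are printed because they show the motif in its place for the loci with the largest differences. Each is read 5′ to 3′ from the reference genome (TAIR10.1) at the gene starts of the deposited models, in lower case with the box in capitals, and its last base adjoins the gene.
VGDH1 (chr2:19326398-19326647, minus strand): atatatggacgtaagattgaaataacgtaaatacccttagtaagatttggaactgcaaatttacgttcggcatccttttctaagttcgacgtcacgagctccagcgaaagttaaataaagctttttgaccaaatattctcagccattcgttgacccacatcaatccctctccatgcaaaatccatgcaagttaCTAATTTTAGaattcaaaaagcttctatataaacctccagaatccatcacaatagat
AT3G01270 (chr3:84898-85147, minus strand): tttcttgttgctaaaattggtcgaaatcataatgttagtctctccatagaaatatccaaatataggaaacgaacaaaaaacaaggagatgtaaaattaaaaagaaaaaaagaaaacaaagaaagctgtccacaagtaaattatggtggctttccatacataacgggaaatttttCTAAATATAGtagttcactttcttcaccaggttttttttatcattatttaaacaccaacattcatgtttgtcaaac
AT3G01240 (chr3:79038-79287, minus strand): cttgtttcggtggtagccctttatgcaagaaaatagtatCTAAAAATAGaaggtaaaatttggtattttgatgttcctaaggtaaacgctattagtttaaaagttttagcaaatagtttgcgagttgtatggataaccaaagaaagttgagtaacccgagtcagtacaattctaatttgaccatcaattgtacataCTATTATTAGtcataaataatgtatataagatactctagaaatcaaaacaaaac
AT5G39880 (chr5:15970637-15970886, plus strand): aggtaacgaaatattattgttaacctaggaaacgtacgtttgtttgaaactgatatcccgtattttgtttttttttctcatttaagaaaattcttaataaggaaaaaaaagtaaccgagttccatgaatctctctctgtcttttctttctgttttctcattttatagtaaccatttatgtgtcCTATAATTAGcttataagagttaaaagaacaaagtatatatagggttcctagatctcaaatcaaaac
AT4G02250 (chr4:983720-983969, plus strand): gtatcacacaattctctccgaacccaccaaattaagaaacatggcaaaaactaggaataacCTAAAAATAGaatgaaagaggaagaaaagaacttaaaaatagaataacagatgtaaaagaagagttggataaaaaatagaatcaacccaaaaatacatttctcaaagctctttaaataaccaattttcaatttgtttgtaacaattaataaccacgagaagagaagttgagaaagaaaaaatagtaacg
AT5G50030 (chr5:20354339-20354588, plus strand): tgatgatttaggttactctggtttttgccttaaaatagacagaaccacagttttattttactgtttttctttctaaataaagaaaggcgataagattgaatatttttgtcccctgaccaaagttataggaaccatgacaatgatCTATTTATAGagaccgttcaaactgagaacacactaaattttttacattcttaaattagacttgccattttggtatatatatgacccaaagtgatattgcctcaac

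Counted from the gene start, the first letter of the box was at -57 in VGDH1, -76 in AT3G01270, -67 in AT5G39880, -189 in AT4G02250 and -106 in AT5G50030. AT3G01240 held 2 boxes, at -211 and -54. Over all 642 nuclear loci that were at least 2-fold higher in stage B, 75 (11.7%) held the box, against 255 (2.0%) of all 13046 tested nuclear loci. Of the 231 lower loci 5 (2.2%) held it, and AT2G21100, with a box at -31, was the 1 locus with a box among the 14 lowest. Among higher loci with a log2 ratio of at least 3, the share was 34 of 189 (18.0%). The share stepped up with the size of the difference, to 26.2% (11 of 42) at a log2 ratio of 5 or more. It was 1.8% (91 of 4987) at log2 ratios between 0 and 1. A match is a description of letters in a window, and binding was not measured.

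**Figure D2:**
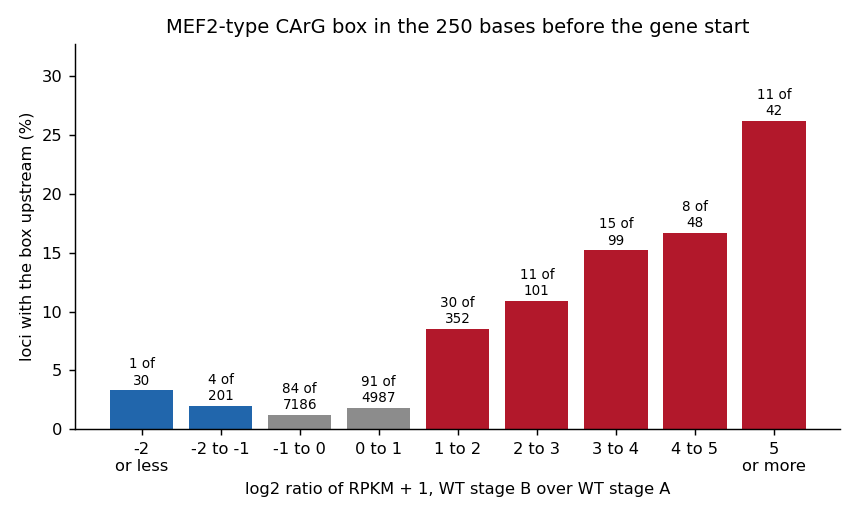
Share of tested nuclear loci with a MEF2-type CArG box in the 250 bases before the gene start (vertical, %), by class of log2 ratio of RPKM + 1, stage B over stage A (horizontal); the numbers above the bars are loci with the box and loci in the class. The share is 1.2% to 3.3% in the 4 classes below a log2 ratio of 1 and 8.5%, 10.9%, 15.2%, 16.7% and 26.2% in the 5 classes above it.

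The box was 1 of 10 motifs looked up in the same windows, on both strands except TATAAA, which was read on the gene's own strand. TATAAA was in 45.3% of windows of higher loci and 36.8% of lower loci, against 31.8% of all tested. TGGGCC, the core of an element of ribosomal and other housekeeping promoters, was in 24 of 642 higher and 15 of 231 lower loci, against 2605 of all 13046. The G-box CACGTG was in 9.2% of higher loci, against 9.1% of all tested. The E-box CANNTG, bound by bHLH factors, was in 53.7% of higher loci, against 54.9%, and the motif ACGTG in 25.5%, against 25.8%; both can contain or lie within a G-box. The pollen motifs GTGA and AGAAA were in 521 and 578 of 642 higher loci, against 10395 and 10927 of all 13046. The MYB motif AACGG was in 117 of 642 higher loci, against 3235 of 13046, and the auxin motif TGTCTC in 13.9%, against 12.2%. Some forms of the box contain TATAAA, and without those forms 10.0% of higher and 1.7% of all tested loci held it. The windows of the higher loci had a median GC content of 31.2%, against 33.2% for all tested, and the part of this in the shares was not tested.

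The MIKC* genes themselves were weakly read. AGL104 had 36 reads and 8.67 RPKM in stage B, against 6 reads and 1.47 RPKM in stage A, a ratio of 5.91 (2.47 to 17.2). AGL30 had 106 reads in stage B and 73 in stage A, a ratio of 1.43 (1.05 to 1.95), and stayed within 2-fold. AGL66 had 8 reads in stage B and 0 in stage A, at least 2.63-fold higher, and was under the level minimum. AGL65 had a ratio of 0.821 (0.385 to 1.72).

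The pollen list as a whole had the largest median of the 21 gene lists. Of its 15 members above the level minimum, 11 were at least 2-fold higher in stage B and none lower, beside 4.93% and 1.76% of all loci, and its median log2 ratio was 2.14. Of these 11, 8 passed the level minimum only through stage B, where they are high, so their share cannot be read against that of all loci. With no minimum the median was 1.28. The plasma membrane proton pump AHA6, which energises uptake into pollen, had 15.4 RPKM in stage B, against 1.93 RPKM in stage A, a ratio of 7.95 (5.28 to 12.5). Its relative AHA9 had 24.1 RPKM in stage B, against 3.54 RPKM in stage A, a ratio of 6.81 (5.0 to 9.45). STP11, a hexose transporter, had 138 reads in stage B and 0 in stage A, at least 45.3-fold higher. The profilin PRF4, an actin-binding protein of pollen, had 65.2 RPKM in stage B, against 11.6 RPKM in stage A. The actin gene ACT12 lay at the threshold, with 13.6 RPKM in stage B, against 6.31 RPKM in stage A, a read ratio of 2.16 (1.44 to 3.27). It fell just short of the call on the RPKM + 1 scale, and 12 members were called with totals scaled by TMM or by size factors. ACT3 stayed within 2-fold, with 115 RPKM in stage B, against 114 RPKM in stage A. The box described above was in 6 of the 15 windows of this list.

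Several pollen coat genes, which the tapetum expresses, were higher as well. Of 8 members above the level minimum 5 were at least 2-fold higher and none lower, beside 4.93% and 1.76% of all loci, with a median log2 ratio of 1.40. The minimum left out 9 of the 17 members, and with no minimum the median was 0.39. The oleosin-like coat protein GRP17 had 136 reads in stage B and 35 in stage A, a ratio of 3.83 (2.62 to 5.72). It passed the level minimum only through stage B. GRP20 and GRP19 of the same cluster had 266 and 97.9 RPKM in stage B, against 90.7 and 33.6 RPKM in stage A. The coat lipase gene EXL4 had 219 RPKM in stage B, against 82.2 RPKM in stage A, a ratio of 2.67 (2.39 to 2.99). Each of these 4 genes had at least 35 reads in stage A, where AT3G07820 had 6.

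Most regulators of the tapetum were lower in stage B. Of 8 members above the level minimum 6 were at least 2-fold lower and none higher, beside 1.76% and 4.93% of all loci, with a median log2 ratio of -1.37. Of these 6, 4 passed the minimum only through stage A. DYT1, an early bHLH regulator, had 3 reads and 1.17 RPKM in stage B, against 22 reads and 8.73 RPKM in stage A. MYB35 (TDF1), which acts after DYT1, had 18 reads and 4.28 RPKM in stage B, against 100 reads and 24.2 RPKM in stage A, a ratio of 0.177 (0.101 to 0.295). The bHLH gene AT2G31220 had 12.1 RPKM in stage B, against 57.2 RPKM in stage A. AMS, the most abundant of the list, had 221 reads and 28.5 RPKM in stage B, against 476 reads and 62.3 RPKM in stage A, a ratio of 0.457 (0.388 to 0.537). The interval of the DYT1 ratio (0.134, 0.0257 to 0.447) overlaps that of AMS. MYB33 and MYB65, upstream regulators also expressed outside the tapetum, had ratios of 1.31 (0.9 to 1.93) and 1.09 (0.769 to 1.55).

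Of 7 tapetal secreted proteins 4 were at least 2-fold lower and none higher, beside 1.76% and 4.93% of all loci, with a median log2 ratio of -1.52. All 4 are lipid-transfer-like proteins, as is ATA7, which stayed within 2-fold at a ratio of 0.687 (0.601 to 0.785). AT3G52130 had 492 reads and 221 RPKM in stage B, against 1689 reads and 772 RPKM in stage A, a ratio of 0.287 (0.259 to 0.317). AT5G52160 had 86.4 RPKM in stage B, against 331 RPKM in stage A, a ratio of 0.261 (0.224 to 0.303). ATA20 had 57 reads in stage B and 37 in stage A, a ratio of 1.52 whose interval (0.986 to 2.36) includes 1. In the same list, the summed level was 582 RPKM in stage B, against 1712 RPKM in stage A, and 36.4 RPKM in stage C.

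Of 10 sporopollenin and exine genes above the level minimum 3 were at least 2-fold lower and none higher, beside 1.76% and 4.93% of all loci, and all 10 ratios were below 1, with a median log2 ratio of -0.78. ACOS5, the acyl-CoA synthetase that starts the sporopollenin pathway, had 70 reads and 10.4 RPKM in stage B, against 242 reads and 36.4 RPKM in stage A, a ratio of 0.285 (0.215 to 0.373). LAP5, a polyketide synthase, had 23.2 RPKM in stage B, against 61.2 RPKM in stage A, a ratio of 0.379 (0.306 to 0.467). Its partner LAP6 had 33.3 RPKM in stage B, against 51.5 RPKM in stage A, a ratio of 0.646 (0.532 to 0.782), and the intervals of the 2 synthases do not overlap. ABCG26, the exporter of the precursors, had 5.69 RPKM in stage B, against 14.8 RPKM in stage A. DRL1, a reductase and the most abundant of the list, had 57.8 RPKM in stage B, against 105 RPKM in stage A.

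None of the 12 phenolamide and flavonol genes passed 2-fold in either direction, beside 4.93% higher and 1.76% lower among all loci. Their median log2 ratio was 0.22. TSM1, a tapetal methyltransferase of the phenolamide branch, had 370 reads in stage B and 364 in stage A, a ratio of 1.0 (0.864 to 1.16). SHT, the spermidine transferase of that branch, had a ratio of 0.921 (0.658 to 1.29), and the chalcone synthase TT4 one of 1.02 (0.975 to 1.08). Of 5 genes of the callose wall and tetrad separation 1 was at least 2-fold lower and none higher, beside 1.76% and 4.93% of all loci. This was MEE48, a family 17 glycosyl hydrolase annotated to exine formation, with 38.0 RPKM in stage B, against 93.5 RPKM in stage A. QRT1, needed for microspores to part from the tetrad, had 5.99 RPKM in stage B, against 9.32 RPKM in stage A, a ratio of 0.643 (0.399 to 1.02).

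**Figure D3:**
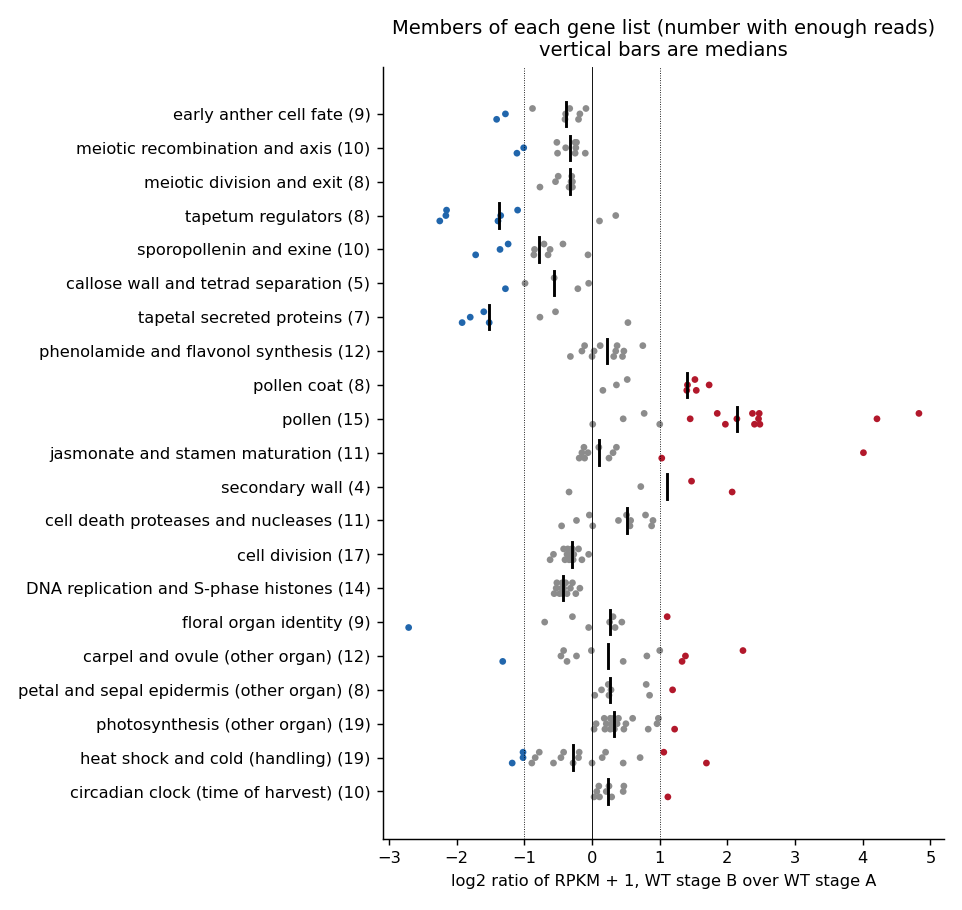
The log2 ratio of RPKM + 1, stage B over stage A, of each list member above the level minimum (points; red at least 2-fold higher, blue at least 2-fold lower, grey within 2-fold), with the number of members in brackets, the list median as a vertical bar and dotted lines at 2-fold. Tapetum regulators (median -1.37) and tapetal secreted proteins (-1.52) lie left of 0, pollen coat (1.40) and pollen genes (2.14) right of it, and cell division and DNA replication members form narrow groups just below 0.

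Of 10 meiotic recombination and axis genes above the level minimum, 2 were at least 2-fold lower, beside 1.76% of all loci. Both passed the minimum only through stage A. All 10 ratios were below 1, where 7445 of all 13157 loci were, with a median log2 ratio of -0.32, and 5 of the 10 intervals include 1. Of all 26 members with a read in either library, 23 had a read ratio at or below 1. The other 3, ASY3, ATMND1 and XRI1, were above 1 and under the level minimum. ASY1, a protein of the chromosome axis, had 35 reads and 3.98 RPKM in stage B, against 78 reads and 9.01 RPKM in stage A, a ratio of 0.442 (0.288 to 0.666). MER3, a crossover helicase, had 30 reads and 1.98 RPKM in stage B, against 81 reads and 5.42 RPKM in stage A, a ratio of 0.365 (0.232 to 0.561). With the totals scaled by TMM or by size factors, 1 of these 2 genes was still 2-fold lower. DMC1, the meiotic strand-exchange recombinase and the most abundant of the list, had 28.9 RPKM in stage B, against 38.2 RPKM in stage A, a ratio of 0.757 (0.613 to 0.933). All 8 genes of meiotic division and exit above the level minimum were also below 1, with a median log2 ratio of -0.33. None was 2-fold lower, beside 1.76% of all loci. TDM1, needed to leave meiosis, was under the level minimum, with 4 reads in stage B and 18 in stage A, a ratio of 0.219 (0.0539 to 0.664).

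Genes of the mitotic cycle formed a tight group just below 0. None of 17 cell division genes passed 2-fold, beside 4.93% higher and 1.76% lower among all loci. All 17 had a ratio below 1, where 7445 of all 13157 loci were. Their median log2 ratio was -0.30, with a range of -0.62 to -0.05, and 8 of the 17 intervals include 1. None of 14 DNA replication and S-phase histone genes passed 2-fold either, beside the same shares of all loci. All 14 intervals lay below 1, with a median log2 ratio of -0.43 and a range of -0.56 to -0.18. The mitotic kinase CDKB2;1 had 146 RPKM in stage B, against 189 RPKM in stage A, a ratio of 0.773 (0.704 to 0.849). The clamp protein PCNA1 had 99.2 RPKM in stage B, against 143 RPKM in stage A, a ratio of 0.696 (0.613 to 0.79). Scaling the totals by TMM or by size factors moved the median of all loci by 0.04 and 0.02.

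The floral meristem genes LFY and KNU were among the 14 lowest loci. LFY, the floral meristem identity factor, had 10 reads in stage B and 93 in stage A, a ratio of 0.106 (0.0492 to 0.204). Its partner UFO had 0 reads in stage B and 13 in stage A, under the level minimum. KNU, a zinc-finger protein that ends floral stem cell activity, had 3 reads in stage B and 37 in stage A, a ratio of 0.0798 (0.0158 to 0.252). Early anther genes differed less. SPL, required to form sporocytes, had 7.28 RPKM in stage B, against 21.0 RPKM in stage A, a ratio of 0.346 (0.233 to 0.506), and the glutaredoxin ROXY2 13 reads in stage B and 35 in stage A. All 9 early anther genes above the level minimum were below 1, 2 of them by 2-fold, beside 1.76% of all loci. Of these 2, ROXY2 passed the minimum only through stage A. The receptor kinases EMS1 and BAM2 had ratios of 0.757 (0.668 to 0.857) and 0.754 (0.687 to 0.827). SUP, which keeps stamen genes out of the carpel whorl, had 49 reads in stage B and 20 in stage A. It passed the level minimum only through stage B. The floral organ identity genes AP3 and SEP2 stayed within 2-fold, with 276 and 206 RPKM in stage B, against 287 and 166 RPKM in stage A.

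Several others of the lowest loci encode wall and secreted proteins. The peroxidase AT2G18150 had 12 reads in stage B and 166 in stage A, a ratio of 0.0712 (0.0361 to 0.128). The peroxidase AT1G44970 was far more abundant, with 113 RPKM in stage B, against 592 RPKM in stage A, a ratio of 0.19 (0.174 to 0.208). The lipid-transfer-like gene AT3G07450 had 17 reads in stage B and 121 in stage A. AT2G21100, a dirigent-like gene, had 14 reads in stage B and 95 in stage A, and the uclacyanin UCC2, a blue copper protein, 13 in stage B and 84 in stage A. The other loci among the 14 lowest were AT1G03700, AT5G09780 (a B3 factor), AT1G15190 (fasciclin-like), AT2G31035, AT3G11591 and MIR839A, with 2 to 20 reads in stage B, against 21 to 131 reads in stage A.

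Of 11 jasmonate and stamen maturation genes above the level minimum, 2 were at least 2-fold higher and none lower, beside 4.93% and 1.76% of all loci. Of these 2, MYB21 passed the minimum only through stage B. MYB21, which jasmonate signalling uses to drive filament growth and opening of the anther, had 83 reads and 18.9 RPKM in stage B, against 1 read and 0.231 RPKM in stage A, a ratio of 81.7 (14.3 to 3267). Its relatives MYB24 and MYB57 had 12 and 1 reads in stage B and none in stage A. The lipoxygenase LOX2 had 237 RPKM in stage B, against 115 RPKM in stage A, a ratio of 2.05 (1.92 to 2.19), and the other 9 genes stayed within 2-fold. Of 4 secondary wall genes above the level minimum, 2 were at least 2-fold higher, the lignin laccases LAC4 and LAC17. They had 82 and 46 reads in stage B, against 13 and 11 reads in stage A. Both passed the minimum only through stage B, so their share cannot be read against the 4.93% of all loci. None of 11 cell death proteases and nucleases passed 2-fold on the RPKM + 1 scale, beside 4.93% higher and 1.76% lower among all loci. The read ratios of XCP2 and AT3G19390 were nevertheless 2.05 (1.24 to 3.49) and 2.04 (1.27 to 3.36). The vacuolar protease RD19A had 523 RPKM in stage B, against 399 RPKM in stage A.

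Genes of other floral organs were looked up as well. Of 12 carpel and ovule genes 3 were at least 2-fold higher and 1 lower, beside 4.93% and 1.76% of all loci. INO, which acts in the outer integument of the ovule, had 27.9 RPKM in stage B, against 5.17 RPKM in stage A, a ratio of 5.39 (3.44 to 8.82). HEC3, a bHLH factor of the transmitting tract, and SHP2, a MADS-box factor of carpels, had 94 and 25 reads in stage B, against 34 and 7 reads in stage A. SHP2 passed the level minimum only through stage B. CRC, a factor of carpel and nectary development, had 76.3 RPKM in stage B, against 192 RPKM in stage A, a ratio of 0.397 (0.345 to 0.455). Of 19 photosynthesis genes above the level minimum 1 (5.26%) was at least 2-fold higher, near the 4.93% of all loci. All 19 ratios were above 1, where 5712 of all 13157 loci were, though 2 of the intervals include 1; the median log2 ratio was 0.33, and the list took 2.53% of reads in stage B, against 2.08% in stage A. The one past 2-fold, the Rubisco small subunit RBCS2B, had 1251 RPKM in stage B, against 536 RPKM in stage A, and reads of its near copies RBCS1B and RBCS3B cannot be parted with certainty. Of 8 petal and sepal epidermis genes above the level minimum 1 was at least 2-fold higher, beside 4.93% of all loci. All 8 ratios were above 1, with a median log2 ratio of 0.26. The part of these organs in the anther results was not tested.

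Of 19 heat and cold genes 2 were at least 2-fold higher and 3 lower, beside 4.93% and 1.76% of all loci. With the totals scaled by TMM 1 was lower, since AT2G29500 and HSP18.2 lay at a log2 ratio of -1.02. KIN1, a cold-induced gene, had 317 reads in stage B and 95 in stage A, and the small heat shock protein HSP17.6A 57 in stage B and 130 in stage A. Of 10 clock genes 1 was at least 2-fold higher, beside 4.93% of all loci. The log2 ratios had a median of 0.23 and all were above 0, but 7 of the 10 intervals include a ratio of 1. ELF4, the one past 2-fold, had 37.8 RPKM in stage B, against 16.8 RPKM in stage A. The labels give no time of harvest, and the part of these genes in the other results was not tested.

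The same step in the libraries labelled atcep1, whose few CEP1 reads do not check the label, shares no library with the wild-type step. There 646 of 13345 loci (4.84%) were at least 2-fold higher in atcep1 stage B than in atcep1 stage A and 123 (0.922%) lower. In all, 331 loci were higher in both, which is 51.0% of the wild-type list and 51.2% of the atcep1 list. A further 29 were lower in both, 12.6% of the wild-type list and 23.6% of the atcep1 list. Of the 649 loci higher in the wild type, 603 (92.9%) had a ratio above 1 in atcep1, where 42.1% of all tested loci did. Of the 231 lower ones, 199 (86.1%) had a ratio below 1 there, where 57.8% of all did. Over 12446 loci tested in both, the 2 log2 ratios had a Pearson correlation of 0.78 and a Spearman correlation of 0.47, given as a description, since genes are not independent replicates.

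**Figure D4:**
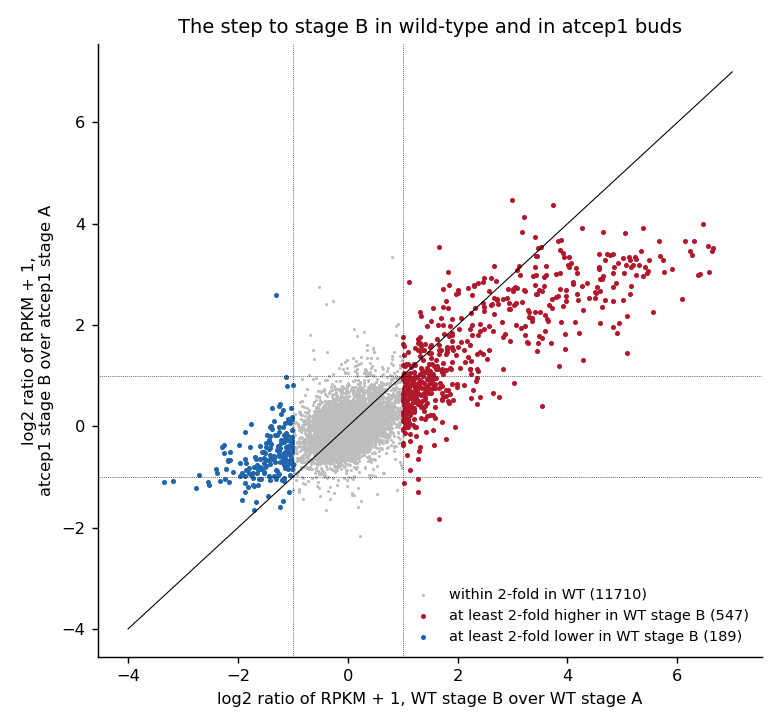
The log2 ratio of RPKM + 1 from stage B over stage A in the libraries labelled atcep1 (vertical) against that in wild-type buds (horizontal), for loci tested in both; red and blue points are at least 2-fold higher or lower in wild-type stage B, the solid line marks equal ratios and the dotted lines 2-fold. Of the 165 loci with a wild-type log2 ratio of at least 3, 158 lie below the line of equal ratios; these loci were picked by their wild-type ratio.

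The 14 highest loci, picked by their wild-type ratio, all had smaller log2 ratios in the libraries labelled atcep1, and their levels in atcep1 stage A were higher than in wild-type stage A. AT3G07820 had 366 RPKM in atcep1 stage B, against 32.1 RPKM in atcep1 stage A, a ratio of 11.4 (9.81 to 13.3), where the wild type gave 193 (88.5 to 527). RALFL15 had 45 reads in atcep1 stage B and 3 in atcep1 stage A, a ratio of 14.9 (4.78 to 75.0). The median log2 ratio in atcep1 was 1.23 for the 649 higher loci and -0.57 for the 231 lower ones. In atcep1 stage A the 649 loci took 1.78% of reads, against 0.659% in wild-type stage A. In atcep1 stage B they took 5.08%, against 3.1% in wild-type stage B. The atcep1 levels of AMS and ACOS5 were above the wild-type levels given earlier. AMS had 71.5 RPKM in atcep1 stage B and 121 RPKM in atcep1 stage A, and ACOS5 50.6 RPKM in atcep1 stage B and 97.1 RPKM in atcep1 stage A. Other tapetum regulators went the other way in stage A. DYT1 had 4.26 RPKM in atcep1 stage A, against 8.73 RPKM in wild-type stage A, and MYB35 11.1 RPKM, against 24.2 RPKM. AT2G31220 had 42.6 RPKM in atcep1 stage A, against 57.2 RPKM in wild-type stage A. Summed over the tapetum regulators, the stage A level was 246 RPKM in atcep1, against 195 RPKM in the wild type. With 1 library per genotype and stage, the genotype and the exact age of the buds cannot be told apart.

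**Figure D5:**
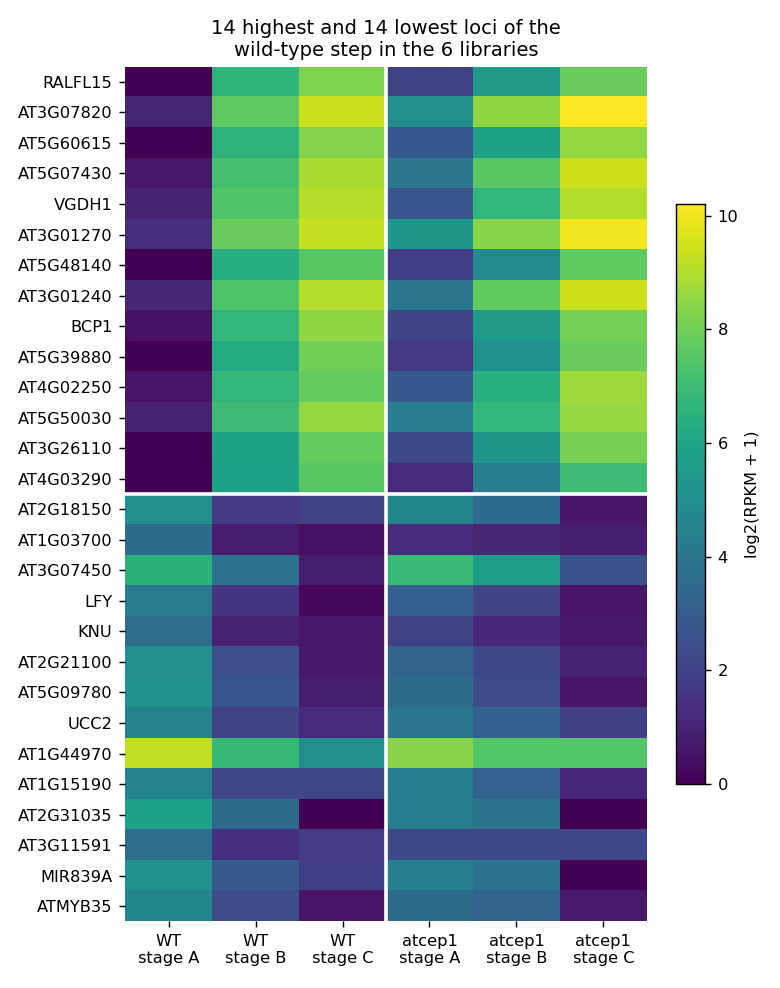
Levels as log2(RPKM + 1) (colour) of the 14 loci with the highest and the 14 with the lowest ratio of the wild-type step (rows) in the 3 stages of the libraries labelled wild type and atcep1 (columns, 1 library each; ATMYB35 is MYB35). The upper 14 rows brighten from stage A through B to C in both genotypes, and start brighter in atcep1 stage A; the lower rows are brightest in wild-type stage A or, for AT3G07450, in atcep1 stage A.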

How the data were processed

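Messenger RNA of whole buds was selected on oligo(dT) beads, fragmented, primed with random hexamers, amplified by PCR and sequenced, per the labels' protocols; no step that marks strand is named. The authors deposited 1 table per library with the count of uniquely mapped reads and the RPKM of each transcript model, per the file headers. TAIR10 is the build in the submitters' processing notes; the sources used here name no aligner and no counter. The deposited counts sum to 4.1 M in wild-type stage B and 4.04 M in stage A. Genes with several models or near-identical copies may have lost reads, as only unique reads were counted.

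Adding up counts and RPKM of 30088 models by locus gave 25964 loci, 23695 of them read in stage A or B; 25743 matched the TAIR10.1 RefSeq table, used for symbols. Loci were set side by side as log2((RPKM + 1)/(RPKM + 1)) with a minimum of 5 RPKM, and read ratios had exact conditional (Clopper-Pearson) 95% intervals in SciPy 1.17.1. A locus without a read in 1 library was set against a floor of 3 reads. Scaling alternatives came from edgeR 4.0.16 (TMM) and DESeq2 1.42.0 (size factors) in R 4.3.3, with no test by either. The interval was tested on simulated data.

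Upstream windows of 250 bases were read from TAIR10.1 at the model starts in the files; all but 1 of 25743 loci overlapped their RefSeq locus and 47.1% shared an exact end with it. Lists held 338 loci, 333 of them read, and 9 symbols were left out for want of a match. Named genes are the 14 highest and 14 lowest nuclear ratios with a higher RPKM of at least 10, transposons and structural RNA left out, and per list up to 4 members past 2-fold with the most abundant; markers were fixed by name, and other members named were chosen after their values were seen. The members, lists and motifs were chosen with earlier results of these data known. Nothing says that libraries came from separate plants.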

Additional observations from a re-analysis of the deposited data

Results flagged for a closer look

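For 2 named genes that were at least 2-fold lower in the wild-type step, the ratio in the libraries labelled atcep1 lay on the other side of 1; the difference was not tested. ASY1 had a log2 ratio of -1.01 in the wild type (35 reads in stage B, 78 in stage A) and 0.43 in atcep1, where the interval of its read ratio (1.49, 0.843 to 2.68) includes 1. HSP17.6A had -1.18 in the wild type (57 reads in stage B, 130 in stage A) and 0.32 in atcep1, where the interval (1.26, 0.885 to 1.8) includes 1 as well. Neither gene is therefore shown to be higher in atcep1 stage B. Over all loci, 5 were past 2-fold in opposite directions: AT1G03935, AT1G05330, AT3G21805, AT3G29633 and AT4G22490. The lipid-transfer-like gene AT4G22490 had 33 reads in stage B and 12 in stage A of the wild type, a ratio of 2.71 (1.36 to 5.76), and 32 in stage B and 68 in stage A of atcep1, a ratio of 0.468 (0.297 to 0.722). The other 4 had at most 15 reads in each of these libraries, and their wild-type intervals include 1.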

How the results depend on the processing

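The counts of loci moved with the treatment of low levels and little with scaling. The 649 higher and 231 lower loci became 414 and 99 with a pseudocount of 5, 1184 and 516 with a minimum of 1 RPKM or with no minimum, and 369 and 77 with the interval wholly past 2-fold. With a minimum of 10 RPKM 146 were lower, and in both genotypes 200 were higher (331 as reported) and 10 lower (29 as reported). TMM gave 686 and 210, size factors 668 and 219, a pseudocount of 0.1 719 and 292. The median of the secondary wall list, 1.1, became -0.34 at a minimum of 10 RPKM, where IRX10 alone was left. The median of the pollen list of 2.14 became 1.2 with a pseudocount of 5 and 1.28 with no minimum, and that of the pollen coat, 1.40, became 0.39 with no minimum. With loci unread in 1 library set at their bound, the medians of the higher and lower loci were 1.8 and -1.34 and that of the pollen list 2.14. No paired analysis was possible because each genotype and stage has 1 library and no replicate number. Depth limits the loci with few reads in stage A.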

Other observations

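Families were also defined by the words of the annotation. Of 40 pectin lyase-like genes with enough reads 17 were at least 2-fold higher in stage B and 1 lower, beside 4.93% and 1.76% of all loci. Of 43 pectin methylesterases and inhibitors 18 were higher and none lower. In both families some higher members passed the level minimum only through stage B. AT3G07820 and VGDH1 are examples, at 1.06 and 0.954 RPKM in stage A. These shares therefore cannot be read against those of all loci. The 2 families took 0.52% and 0.366% of reads in stage B, against 0.247% and 0.158% in stage A. Of 44 arabinogalactan genes, which encode sugar-rich wall proteins, 11 were higher and 3 lower, beside 4.93% and 1.76% of all loci. Among the 11, AGP11 and FLA3, at 3.95 and 0.416 RPKM in stage A, passed the level minimum only through stage B. AGP6, known for pollen development, had 1380 reads and 382 RPKM in stage B, against 22 reads and 6.19 RPKM in stage A, a ratio of 61.8 (40.6 to 98.9). AGP11 had 632 reads in stage B and 12 in stage A, and FLA3, a fasciclin-like protein of microspores, 351 in stage B and 2 in stage A. ATPRK2A, a pollen receptor kinase, had 197 reads in stage B and 0 in stage A, at least 64.7-fold higher. CDEF1, a cutinase of pollen, had 62 reads in stage B and 0 in stage A, at least 20.4-fold higher.

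Some families split. Of 17 class III peroxidases 3 were higher and 7 lower, beside 4.93% and 1.76% of all loci. The higher AT5G47000 was read 193 times in stage B and 0 times in stage A, so it passed the level minimum only through stage B. Of 50 lipid transfer proteins 8 were higher and 10 lower, beside the same shares of all loci. AT4G33355 had 37.7 RPKM in stage B, against 7.12 RPKM in stage A, and AT1G73890 87.6 RPKM in stage B, against 413 RPKM in stage A. Among genes of the meristem and young organs, the flowering MADS-box gene AGL20 (SOC1) had 41 reads in stage B and 110 in stage A, and CYP78A5, a cytochrome of growing organs, 211 in stage B and 596 in stage A. Of 310 genes annotated as ribosomal proteins 2 were higher and none lower, beside 4.93% and 1.76% of all loci, with a median log2 ratio of -0.09. Of 248 pentatricopeptide repeat genes 1 was lower and none higher, beside the same shares. Transcripts of the mitochondrial genome took 0.506% of reads in stage B, against 0.33% in stage A. Of its 33 genes with enough reads 5 were at least 2-fold higher, beside 4.93% of all loci. Transcripts of the chloroplast genome took 1.65% in stage B, against 1.61% in stage A. The RNA was selected on oligo(dT) beads, and the part of that selection in these organelle shares was not tested.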
